A study of Mus musculus with 12 samples.

Results

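Cell cycle and DNA replication genes were followed in RNA sequencing of CD11b-selected brain cells from mice with a bone marrow transplant. A list of 43 mouse genes was taken by symbol from the count table. All 43 were found there and all 43 passed the filter on low counts, out of 36491 genes in the table, of which 18875 passed. They fall into 10 genes of the G1 phase and the entry into S phase, 17 genes of S phase and DNA replication, and 16 genes of G2 and mitosis. All mice were adult male wild type C57BL/6J animals of 6 months. They received a bone marrow transplant with the head shielded or not shielded, then the CSF1R inhibitor PLX5622 in food for 2 weeks, then standard chow for 6 weeks, and at last an intraperitoneal injection of 50 µg lipopolysaccharide (LPS, a component of bacterial walls) or saline. Cells were sorted 6 hours later with magnetic beads against CD11b, a surface protein of myeloid cells. The 12 libraries form 4 groups of 3, which are called unshielded LPS, unshielded without LPS, shielded LPS and shielded without LPS. Depletion with PLX5622 and repopulation are shared by all 4 groups, so no group shows cells that were never depleted, and no group lacks a transplant.

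Cells that divide pass from G1 into S phase, where the DNA is copied, and then through G2 into mitosis. D-type cyclins with the kinases CDK4 and CDK6 phosphorylate the retinoblastoma protein and its relatives, which frees E2F transcription factors to switch on genes of DNA replication. The MCM proteins form the helicase that opens the DNA, PCNA is the clamp that holds polymerases on it, and enzymes such as thymidylate synthase supply nucleotides. Mitotic genes are switched on later by the MuvB complex with B-MYB and FOXM1, which acts through a promoter element called the cell cycle genes homology region (CHR) and through CCAAT boxes. Microglia divide when they refill the brain after depletion, and macrophages that come from the marrow can settle beside them.

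The libraries held between 18090977 and 60495968 counts, and levels are given as CPM, the count of a gene relative to the scaled total of its library, with totals scaled by the trimmed mean of M values (TMM). TMM factors were 0.8148 to 0.9689 with LPS and 1.0759 to 1.1714 without LPS, so the scaling moves with the treatment. Microglial and macrophage markers were present in every library, with Csf1r at 5615 to 6433 CPM in unshielded LPS, 5596 to 6171 CPM in unshielded without LPS, 7183 to 9056 CPM in shielded LPS and 7367 to 8916 CPM in shielded without LPS. Their levels were not stable across groups. Of these 8 markers, 2 were higher and 5 lower with LPS in shielded mice, and 2 were higher and 4 lower in unshielded mice. Between unshielded and shielded mice, 6 were lower in unshielded mice after LPS and 5 without LPS, and none was higher. All 5 markers of marrow-derived brain macrophages were higher in unshielded than in shielded mice, both with LPS and without it. Their summed level was 80260 to 105300 CPM in unshielded LPS and 58310 to 88720 CPM in unshielded without LPS, and 2601 to 4452 CPM in shielded LPS and 6791 to 23930 CPM in shielded without LPS. Nearly all of this sum was Apoe, at 78460 to 103100 CPM in unshielded LPS and 2431 to 4205 CPM in shielded LPS. With LPS, 1 of the 5 was higher and 1 lower in unshielded mice, and all 5 were lower in shielded mice. In shielded mice all 6 neuronal and all 4 oligodendrocyte markers were lower with LPS, and the summed neuronal markers were 29.8 to 150.7 CPM in shielded LPS against 169 to 312 CPM in shielded without LPS (107 to 202 CPM in unshielded LPS and 249.8 to 289 CPM in unshielded without LPS). Of 6 markers of oligodendrocyte precursors and neural progenitors, which divide, 1 was higher and 4 were lower with LPS in shielded mice. In unshielded mice 1 of them was higher and none lower. With LPS, 1 of 4 endothelial markers was higher and 2 lower in shielded mice, and 1 was higher and 3 lower in unshielded mice. Of 4 astrocyte markers, 2 were higher and none lower in shielded mice, and 1 was higher and 1 lower in unshielded mice. Of 6 monocyte markers, 5 were higher and 1 lower with LPS in unshielded mice, and 3 were higher and 1 lower in shielded mice. Of all genes tested, 67.5% were higher or lower with LPS in shielded mice by the test given below, and 43.1% in unshielded mice. Between unshielded and shielded mice, 44.6% differed after LPS and 10.8% without LPS. No marker list was tested against other genes. The part of these cell types in the results was not tested. B and T cell markers and erythroid markers were near 0, with Cd79a at 0.56 CPM or less and Hbb-bt at 0.21 CPM or less.

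Some libraries need naming before the results. The shielded libraries 2 and 3 without LPS carry titles without LPS but a treatment field that says LPS, and they are grouped by their titles. Without them, or with them grouped by the field, library 1 alone is left in their group. Cdkn1a, a CDK inhibitor that was higher with LPS in both kinds of mice, had 168 to 238 CPM in shielded LPS, against 31.1 and 29.0 CPM in these 2 libraries and 30.0 CPM in library 1 of their group. Unshielded LPS library 1 stood apart from the other 2 of its group in genes of neutrophil precursors. Elane, a protease of immature neutrophils, had 3.03 CPM there against 0.214 and 0.242 CPM in the others, Mpo had 4.60 against 0.253 and 0.354 CPM, and Prtn3 had 3.62 against 0.253 and 0.373 CPM. These genes were also found without LPS. In shielded libraries without LPS, Elane had 0.452 to 1.91 CPM, Mpo 0.517 to 2.59 CPM and Prtn3 0.194 to 1.38 CPM. In unshielded libraries without LPS the ranges were 0.548 to 1.11, 0.844 to 1.78 and 0.317 to 0.674 CPM in the same order. The summed level of the 8 neutrophil and precursor markers was 861 CPM in it against 269 and 224 CPM in the others, 41.3 to 120.1 CPM in unshielded without LPS, 247 to 426 CPM in shielded LPS and 127 to 306 CPM in shielded without LPS. Calls and medians without these libraries are given beside the results they move.

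Promoters are printed for 6 members that stand for the patterns reported here: E2f2 and Mcm6 with E2F sites, Pcna with none of the E2F or CHR letters searched, and Mki67, Top2a and Cdk1 with CHR letters. Sequences are from RefSeq on build GRCm38.p6, run from 250 bases before to 50 bases after the annotated start, and were found for 34 of the 43 members (not for Ccnd1, Ccnd2, Ccne2, Mcm4, Gins1, Gins2, Ccna2, Aurkb and Tpx2). Capitals mark matches on either strand to the E2F sites TTTCGCGC, TTTGGCGC, TTTCCCGC and TTTGCCGC, to the CHR letters TTTGAA and TTTAAA, and to CCAAT.
E2f2 promoter, chr4:136172024-136172323, plus strand: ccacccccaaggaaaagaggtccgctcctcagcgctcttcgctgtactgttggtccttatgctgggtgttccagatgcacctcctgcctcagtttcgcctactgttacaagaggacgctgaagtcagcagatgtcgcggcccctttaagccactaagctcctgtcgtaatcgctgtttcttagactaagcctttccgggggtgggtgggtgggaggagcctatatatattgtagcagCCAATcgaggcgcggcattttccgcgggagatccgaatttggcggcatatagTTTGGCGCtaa
Mcm6 promoter, chr1:128359656-128359955, minus strand: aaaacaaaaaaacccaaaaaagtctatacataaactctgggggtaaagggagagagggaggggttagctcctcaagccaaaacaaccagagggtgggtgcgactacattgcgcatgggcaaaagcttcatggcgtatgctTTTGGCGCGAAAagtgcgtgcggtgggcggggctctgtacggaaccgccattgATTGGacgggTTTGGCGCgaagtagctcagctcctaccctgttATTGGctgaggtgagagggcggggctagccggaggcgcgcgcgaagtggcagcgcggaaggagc
Pcna promoter, chr2:132253131-132253430, minus strand: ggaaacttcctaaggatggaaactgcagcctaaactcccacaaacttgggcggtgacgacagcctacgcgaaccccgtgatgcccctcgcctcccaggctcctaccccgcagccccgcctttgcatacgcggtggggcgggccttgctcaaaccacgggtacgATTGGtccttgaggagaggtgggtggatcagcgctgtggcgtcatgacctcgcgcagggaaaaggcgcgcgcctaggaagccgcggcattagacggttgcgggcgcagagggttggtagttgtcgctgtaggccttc
Mki67 promoter, chr7:135716330-135716629, minus strand: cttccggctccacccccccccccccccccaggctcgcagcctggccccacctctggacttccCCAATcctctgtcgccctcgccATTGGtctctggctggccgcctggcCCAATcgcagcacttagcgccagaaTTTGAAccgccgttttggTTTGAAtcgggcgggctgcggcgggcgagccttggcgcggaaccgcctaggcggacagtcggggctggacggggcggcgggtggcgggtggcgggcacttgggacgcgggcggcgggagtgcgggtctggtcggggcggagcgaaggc
Top2a promoter, chr11:99024140-99024439, minus strand: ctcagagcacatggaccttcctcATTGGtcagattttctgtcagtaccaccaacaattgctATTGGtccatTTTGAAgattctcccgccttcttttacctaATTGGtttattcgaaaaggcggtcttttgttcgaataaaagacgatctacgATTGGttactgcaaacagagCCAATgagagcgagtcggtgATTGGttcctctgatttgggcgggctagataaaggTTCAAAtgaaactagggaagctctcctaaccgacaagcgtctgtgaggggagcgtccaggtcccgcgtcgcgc
Cdk1 promoter, chr10:69352863-69353162, minus strand: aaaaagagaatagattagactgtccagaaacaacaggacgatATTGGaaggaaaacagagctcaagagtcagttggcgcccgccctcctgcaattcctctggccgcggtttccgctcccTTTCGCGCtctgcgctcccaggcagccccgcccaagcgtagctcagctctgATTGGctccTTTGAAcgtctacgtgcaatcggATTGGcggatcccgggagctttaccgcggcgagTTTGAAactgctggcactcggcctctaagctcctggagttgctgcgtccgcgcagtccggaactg

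The E2f2 window shown holds TTTGGCGC after the start site, and another annotated start of E2f2 has TTTGAA and CCAAT letters but no E2F site. Mcm6 holds E2F letters from -110, on the opposite strand from -106 and again from -47, and the first 2 of these overlap. Mki67 has TTTGAA from -116 and from -98, Top2a has it from -179 and on the opposite strand from -23, and Cdk1 has it from -71 and from -15 besides an E2F site from -131. Among members with a promoter, E2F letters were in 9 of 34, against 2.6% of the 27025 genes with a promoter in the table. By class they were in 2 of 7 G1 genes, 6 of 14 S phase genes (Mcm3, Mcm5, Mcm6, Mcm7, Cdc6 and Uhrf1) and 1 of 13 mitotic genes. CHR letters were in 21 of 34 members and in 12 of 13 mitotic ones, against 30.6% of all those genes. CCAAT was in 26 of 34 members and in 12 of 13 mitotic ones, against 41.1% of all those genes. A gene counts where any of its promoters in the table holds the letters. These are matches of letters and were not tested for binding.

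With LPS in unshielded mice, the 3 D-type cyclins, Cdk6 and E2f1, 4 of 17 S phase genes and 1 of 16 mitotic genes passed the test. In shielded mice the 3 D-type cyclins, Cdk4, Cdk6, E2f1 and E2f2, 8 of 17 S phase genes and 1 of 16 mitotic genes did so. The G1 calls are 50% of that class in unshielded and 70% in shielded mice. A gene was called where the edgeR quasi-likelihood test gave a Benjamini-Hochberg adjusted p below 0.05 over all 18875 genes tested. With LPS in unshielded mice, 7 members were higher and 3 lower, which is 23.3% of the members against 43.1% of all genes tested (24.3% higher and 18.8% lower). With LPS in shielded mice, 11 were higher and 5 lower, 37.2% of the members against 67.5% of all genes (32.4% higher and 35.1% lower). By range alone, all LPS libraries lay above all those without LPS for 12 members and below them for 3 in unshielded mice, where 29.6% and 31.7% of all genes did so. The same counts in shielded mice were 11 and 8 members, against 34.1% and 35.7% of all genes. In neither comparison was the share of members above the background share. Scaling by library totals in place of TMM gave a median over all genes of -0.36 in place of -0.06 in unshielded and -0.49 in place of -0.14 in shielded mice, and the share of higher genes among those called was then 28.9% in place of 56.4% in unshielded and 30.7% in place of 48% in shielded mice. The median log2 fold change of the members was 0.21 in unshielded mice, beside -0.06 over all genes tested, and -0.02 in shielded mice, beside -0.14. Under library totals the members' median was -0.085 in unshielded mice, where it turned sign, and -0.37 in shielded mice. Bulk counts cannot tell a lower share of cells in cycle from less of these RNAs per cell.

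In the comparisons of unshielded with shielded mice, 13 members were higher and 6 lower after LPS, 44.2% of the members against 44.6% of all genes (19.1% higher and 25.6% lower). Without LPS, 3 members were higher and 1 lower, 9.3% of the members against 10.8% of all genes (3.98% higher and 6.85% lower). By range alone, the unshielded libraries lay above the shielded ones without overlap for 17 members and below them for 7 after LPS (21.8% and 27.6% of all genes), and for 12 and 4 members without LPS (14.2% and 19.4% of all genes). The LPS effect itself differed between unshielded and shielded mice for 8 members, 3 more positive and 5 more negative in unshielded mice, which is 18.6% against 13.3% of all genes (4.06% more positive and 9.25% more negative). By direction, 30.2% of the members were higher after LPS and 14% lower, and by range 39.5% were higher after LPS and 27.9% without LPS. No test of the list against other genes was made. The median log2 difference of members was 0.31 after LPS, 0.04 without LPS and 0.26 for the difference of LPS effects, beside 0.07, -0.003 and 0.08 over all genes tested. Without the 2 libraries whose fields conflict, the last of these was 0.11. These 5 comparisons share libraries, so their counts are not independent of each other.

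Of the members called with LPS, 6 were higher in both kinds of mice (Ccnd2, Ccnd3, Cdk6, Mcm4, Mcm6 and Pcna), which is 85.7% of those higher in unshielded and 54.5% of those higher in shielded mice. The 3 members lower in both were Ccnd1, E2f1 and Mcm7, all 3 of those lower in unshielded mice and 3 of the 5 lower in shielded mice. No member was called in opposite directions. In no comparison were 21 members called, made up of 3 G1 genes, 6 S phase genes and 12 mitotic genes. The mitotic genes also rest on fewer reads, with a median of 63 counts per gene and library, against 318 for S phase and 720 for G1 genes. Shares of all genes called alike in both kinds of mice, or in no comparison, were not counted. The numbers of members given here therefore have no background beside them. Of all genes tested, 43.1% were called with LPS in unshielded and 67.5% in shielded mice.

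**Figure D1:**
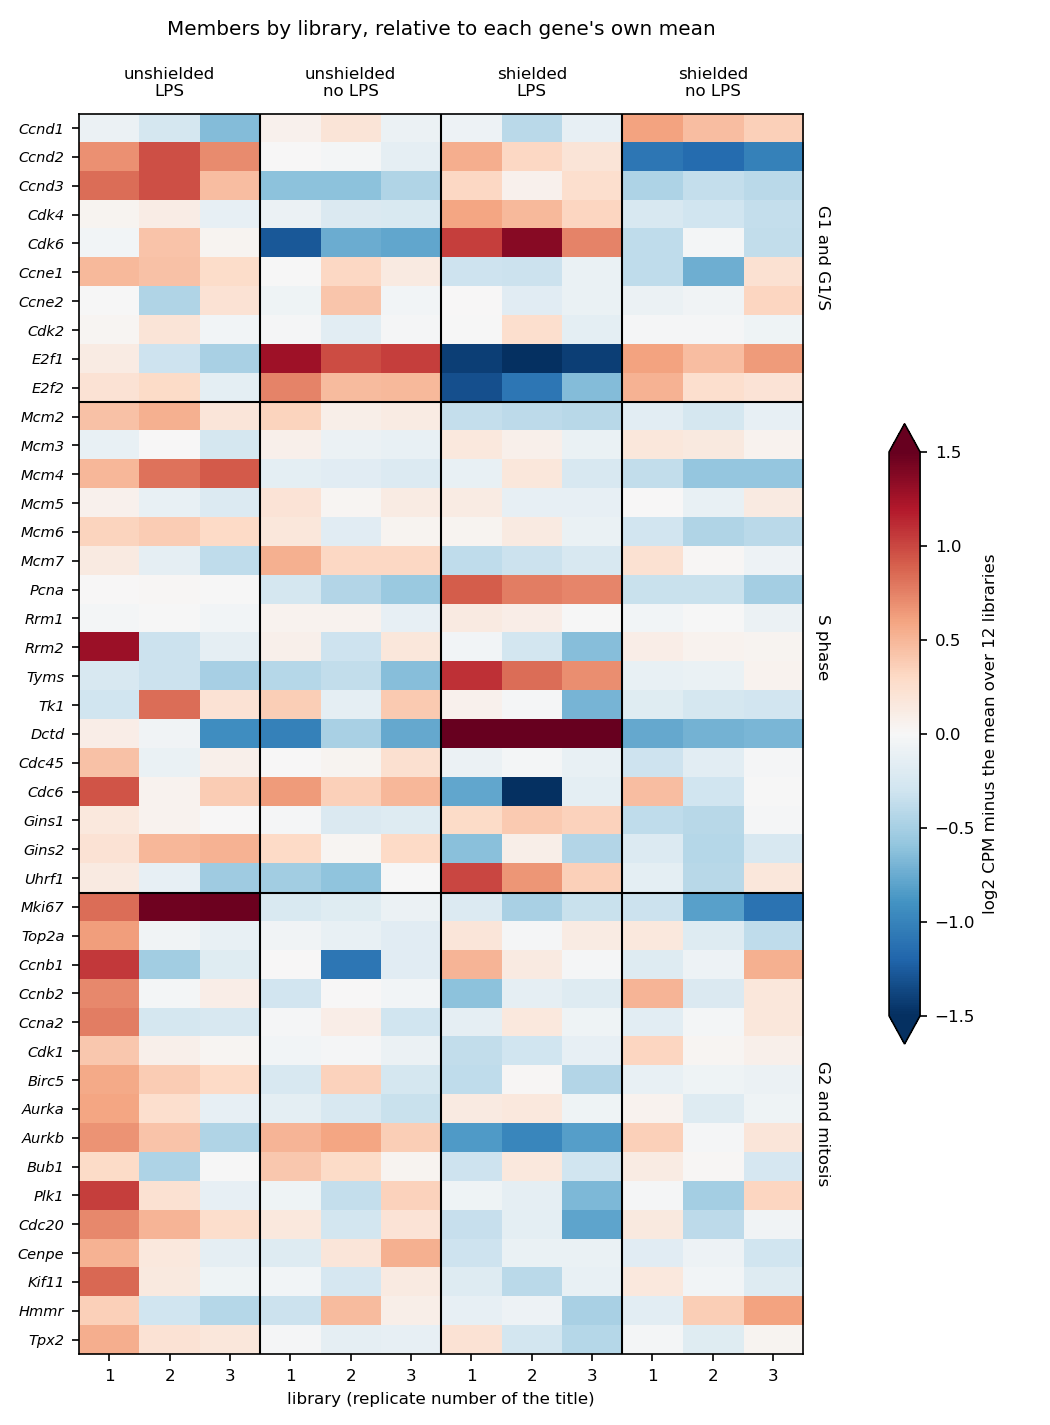
Heat map of the 43 members (rows, in the order G1, S phase, mitosis) over the 12 libraries (columns, LPS left of no LPS within unshielded and within shielded mice), coloured by log2 CPM minus the member's mean over all libraries. Unshielded LPS library 1 is the highest of the 12 libraries for 16 of 43 members, 12 of them mitotic.

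Among the G1 genes, the 3 D-type cyclins moved differently from each other. Cyclin D1, encoded by Ccnd1, is the D-type cyclin most tied to growth factor signals. Ccnd1 had 137, 121 and 92.9 CPM in unshielded LPS libraries and 152, 167 and 137 CPM in unshielded libraries without LPS, and 138, 110.3 and 134 CPM in shielded LPS libraries and 221, 200.4 and 187 CPM in shielded libraries without LPS. LPS libraries lay below those without LPS with no overlap in shielded mice, and with an overlap of 1 library in unshielded mice. The log2 fold change with LPS was -0.38 ± 0.14 (adjusted p = 0.0464) in unshielded mice and -0.67 ± 0.14 (adjusted p = 0.00116) in shielded mice (± SE here and below). Without LPS, unshielded libraries lay below shielded libraries with no overlap, at -0.42 ± 0.14, but this missed the threshold (adjusted p = 0.0831). The unshielded LPS call was lost in 4 of 6 fits that left out 1 library (unshielded LPS 2 and 3, unshielded without LPS 1 and 2; adjusted p = 0.0715 to 0.172) and with DESeq2 (adjusted p = 0.0541). Ccnd1 shares 23.4% of its exon bases with LTO1 on the opposite strand, and LTO1 did not move the same way, at 0.39 with LPS in shielded mice.

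Ccnd2 encodes cyclin D2. In unshielded mice Ccnd2 stood at 45.2, 55.2 and 46.1 CPM with LPS and 28.2, 27.6 and 25.7 CPM without it, and in shielded mice at 40.99, 35.02 and 32.1 CPM with LPS and 13.3, 12.6 and 13.9 CPM without it. No group overlapped another: unshielded LPS was highest, then shielded LPS, then unshielded without LPS, and shielded without LPS was lowest. With LPS its log2 fold change was 0.85 ± 0.10 (adjusted p = 4.12e-05) in unshielded and 1.44 ± 0.11 (adjusted p = 2.82e-07) in shielded mice. Unshielded over shielded, it was 0.44 ± 0.10 (adjusted p = 0.0047) after LPS and 1.03 ± 0.11 (adjusted p = 0.000191) without LPS. It was the only member called in all 5 comparisons.

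Cyclin D3 is the product of Ccnd3. The levels of Ccnd3 were 65.3, 71.4 and 50.3 CPM (unshielded, LPS), 23.7, 23.9 and 26.6 CPM (unshielded, no LPS), 45.3, 38.3 and 43.5 CPM (shielded, LPS) and 26.5, 28.4 and 27.6 CPM (shielded, no LPS). Unshielded LPS libraries were above shielded LPS libraries without overlap, and both were above all libraries without LPS. With LPS the log2 fold change was 1.33 ± 0.12 (adjusted p = 3.42e-06) in unshielded and 0.62 ± 0.12 (adjusted p = 0.000569) in shielded mice, and after LPS unshielded mice were higher by 0.56 ± 0.12 (adjusted p = 0.0021). When libraries were scaled by their totals, Ccnd3 was no longer called with LPS in shielded mice (log2 fold change 0.28, adjusted p = 0.06).

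Cdk4 encodes a kinase partner of the D-type cyclins. For Cdk4, unshielded LPS libraries gave 71.9, 75.7 and 64.3 CPM and those without LPS 65.7, 60.4 and 59.95 CPM, while shielded LPS libraries gave 105, 98.3 and 87.3 CPM and those without LPS 59.2, 56.97 and 54.7 CPM. Shielded LPS libraries were above all others, and the unshielded groups overlapped. Its log2 fold change with LPS was 0.19 ± 0.09 (adjusted p = 0.109) in unshielded and 0.77 ± 0.09 (adjusted p = 1.13e-05) in shielded mice, and after LPS the unshielded level differed by -0.46 ± 0.09 (adjusted p = 0.00133). Tspan31 shares 19.7% of the Cdk4 exon bases on the opposite strand and had log2 fold changes of 0.50 in unshielded and 0.74 in shielded mice with LPS. With the strand setting unknown, reads that fall in the shared bases cannot be assigned to Cdk4 or Tspan31.

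The other kinase of the pair is encoded by Cdk6. Cdk6 had 45.1, 62.0 and 47.4 CPM in unshielded LPS libraries and 19.2, 27.7 and 26.9 CPM in unshielded libraries without LPS, and 95.2, 119 and 77.8 CPM in shielded LPS libraries and 35.4, 45.2 and 35.8 CPM in shielded libraries without LPS. The shielded LPS group was again the highest and unshielded libraries without LPS the lowest, and LPS libraries did not overlap libraries without LPS in either kind of mouse. LPS gave a log2 fold change of 1.07 ± 0.19 (adjusted p = 0.000796) in unshielded and 1.33 ± 0.19 (adjusted p = 7.88e-05) in shielded mice. Unshielded mice were lower than shielded mice, at log2 -0.92 ± 0.19 (adjusted p = 0.00197) after LPS and -0.66 ± 0.19 (adjusted p = 0.046) without LPS. The call without LPS was lost on leaving out any 1 of the 6 libraries (adjusted p = 0.0628 to 0.19).

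Of the E2F factors, E2F1 is an activator of replication genes. In unshielded mice E2f1 stood at 3.42, 2.53 and 2.24 CPM with LPS and 7.59, 6.21 and 6.46 CPM without it, and in shielded mice at 1.18, 1.11 and 1.19 CPM with LPS and 4.78, 4.33 and 4.897 CPM without it. The 4 groups did not overlap, with shielded LPS lowest and unshielded without LPS highest. LPS lowered E2f1, at log2 -1.31 ± 0.18 (adjusted p = 0.000109) in unshielded and -2.01 ± 0.20 (adjusted p = 2.66e-06) in shielded mice. After LPS it was higher in unshielded mice by 1.24 ± 0.20 (adjusted p = 0.000323).

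E2F2 is a further activator. The levels of E2f2 were 9.499, 9.94 and 7.404 CPM (unshielded, LPS), 13.7, 11.4 and 11.4 CPM (unshielded, no LPS), 3.29, 3.84 and 5.22 CPM (shielded, LPS) and 11.8, 9.76 and 9.43 CPM (shielded, no LPS). The 3 shielded LPS libraries were the lowest of all, and unshielded LPS libraries lay below unshielded libraries without LPS without overlap. On the log2 scale the LPS effect was -0.44 ± 0.18 in unshielded mice, which missed the threshold (adjusted p = 0.0617; called lower under library totals), and -1.32 ± 0.19 (adjusted p = 5.23e-05) in shielded mice. After LPS the unshielded level was higher by 1.12 ± 0.18 (adjusted p = 0.000403).

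The remaining G1 members, Ccne1 and Ccne2 (cyclins E1 and E2, which start S phase) and their kinase Cdk2, were called in none of the 5 comparisons. Ccne1 ranged from 0.743 to 1.73 CPM over the 12 libraries and Ccne2 from 1.42 to 2.60 CPM. The log2 fold change of Cdk2 with LPS was 0.13 ± 0.11 in unshielded mice and 0.08 ± 0.11 in shielded mice, but under scaling by library totals the shielded value turned to -0.28 and was called lower (adjusted p = 0.0175).

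**Figure D2:**
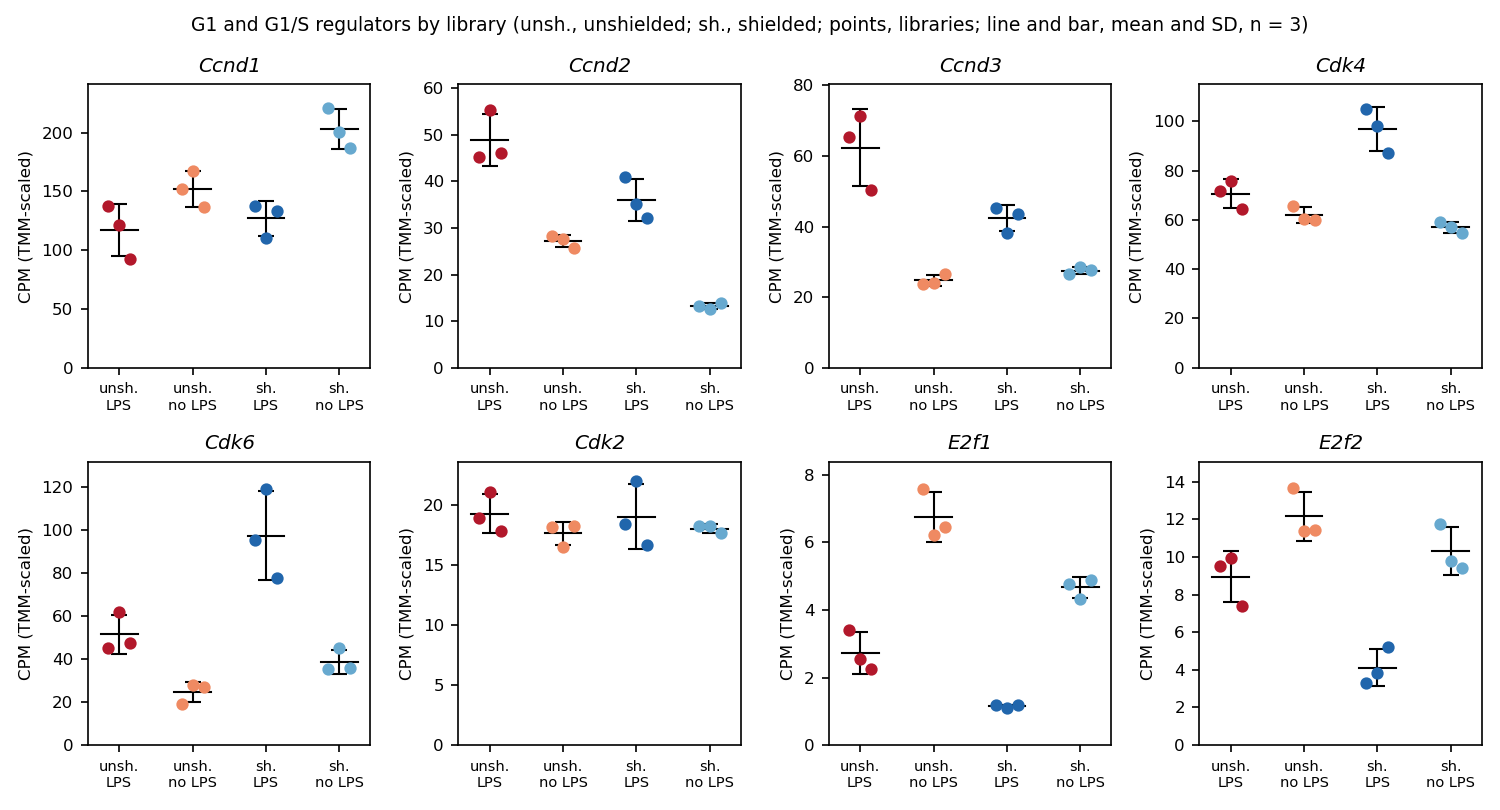
CPM of 8 G1 genes in each library (points), with the group mean and SD (line and bar, n = 3), for unshielded LPS, unshielded without LPS, shielded LPS and shielded without LPS from left to right. Ccnd2 and Ccnd3 are highest in unshielded LPS libraries, Cdk4 and Cdk6 in shielded LPS libraries, and E2f1 and E2f2 are lowest in shielded LPS libraries.

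Among the S phase genes called, Pcna, Dctd, Tyms, Uhrf1 and Gins1 had their highest mean in shielded LPS libraries. Mcm2, Mcm4, Mcm6 and Gins2 had it in unshielded LPS libraries, and Mcm7 in unshielded libraries without LPS. For Cdc6 the mean was 0.960 CPM in unshielded LPS and 0.956 CPM in unshielded libraries without LPS, so neither group stood out. With LPS, 3 of 17 were higher and 1 lower in unshielded mice, and 7 were higher and 1 lower in shielded mice, which is 23.5% against 43.1% of all genes in unshielded and 47.1% against 67.5% in shielded mice. After LPS, 5 were higher and 4 lower in unshielded than in shielded mice (52.9% against 44.6% of all genes), and without LPS 2 were higher and none lower (11.8% against 10.8%). The 6 subunits of the MCM helicase did not move as one. Mcm3, at 51.7 to 70.1 CPM over the 12 libraries, and Mcm5, at 7.72 to 10.3 CPM, passed no test, though under library totals both were called lower with LPS in both kinds of mice.

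Mcm2 was called by shield and not by LPS. For Mcm2, unshielded LPS libraries gave 20.6, 22.04 and 17.3 CPM and those without LPS 19.3, 16.2 and 16.7 CPM, while shielded LPS libraries gave 11.9, 11.6 and 11.5 CPM and those without LPS 13.7, 12.7 and 14.02 CPM. All 6 unshielded libraries were above all 6 shielded libraries. Unshielded mice were higher by log2 0.78 ± 0.11 (adjusted p = 0.000113) after LPS and 0.37 ± 0.11 (adjusted p = 0.0469) without LPS, and the call without LPS was lost on leaving out any 1 of the 6 libraries (adjusted p = 0.0755 to 0.228). With LPS its log2 fold change was 0.20 ± 0.11 in unshielded and -0.21 ± 0.11 in shielded mice, and neither passed the test, though the shielded one was called lower under library totals.

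Mcm4 rose with LPS in both kinds of mice. Mcm4 had 30.4, 37.6 and 40.7 CPM in unshielded LPS libraries and 19.4, 19.02 and 18.6 CPM in unshielded libraries without LPS, and 19.9, 24.2 and 18.2 CPM in shielded LPS libraries and 16.6, 14.4 and 14.3 CPM in shielded libraries without LPS. The unshielded LPS group was above all others, and shielded libraries without LPS were the lowest. Its log2 fold change with LPS was 0.93 ± 0.12 (adjusted p = 7.86e-05) in unshielded and 0.46 ± 0.13 (adjusted p = 0.00683) in shielded mice, and after LPS it was higher in unshielded mice by 0.80 ± 0.12 (adjusted p = 0.000254). The shielded call was lost under scaling by library totals (adjusted p = 0.418) and without the 2 libraries whose fields conflict (adjusted p = 0.186).

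Mcm6 also rose with LPS, by less. E2F letters were found in promoters of Mcm3, Mcm5, Mcm6 and Mcm7 alike, which did not move together. In unshielded mice Mcm6 stood at 29.7, 30.7 and 29.2 CPM with LPS and 26.7, 20.99 and 24.4 CPM without it, and in shielded mice at 24.3, 26.0 and 22.03 CPM with LPS and 19.5, 17.3 and 17.9 CPM without it. The 3 unshielded LPS libraries were the highest and shielded libraries without LPS the lowest, with the other 2 groups overlapping between them. The LPS effect was log2 0.31 ± 0.10 (adjusted p = 0.0214) in unshielded and 0.40 ± 0.10 (adjusted p = 0.00342) in shielded mice. Unshielded over shielded, it was 0.31 ± 0.10 (adjusted p = 0.022) after LPS and 0.40 ± 0.10 (adjusted p = 0.0191) without LPS. Calls for Mcm6 are fragile: leaving out 1 library ended the LPS call in unshielded mice in 3 of 6 fits (unshielded LPS 1, unshielded without LPS 2 and 3; adjusted p = 0.0735 to 0.165), the call after LPS in 3 of 6 (shielded LPS 1 and 3, unshielded LPS 1; adjusted p = 0.0839 to 0.131) and the call without LPS in 4 of 6 (shielded without LPS 2 and 3, unshielded without LPS 1 and 3; adjusted p = 0.0663 to 0.12). Under library totals neither LPS call held (adjusted p = 0.881 in unshielded and 0.61 in shielded mice), nor did the shielded one without the 2 libraries whose fields conflict (adjusted p = 0.129).

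Mcm7 went the other way. The levels of Mcm7 were 15.4, 12.7 and 10.7 CPM (unshielded, LPS), 20.1, 17.3 and 17.4 CPM (unshielded, no LPS), 10.8, 11.1 and 11.8 CPM (shielded, LPS) and 16.4, 14.1 and 13.2 CPM (shielded, no LPS). LPS libraries lay below those without LPS in both kinds of mice, with no overlap. Its log2 fold change with LPS was -0.50 ± 0.13 (adjusted p = 0.0093) in unshielded and -0.38 ± 0.14 (adjusted p = 0.0268) in shielded mice. With the replicate number as a block, the shielded value missed the threshold (adjusted p = 0.0541), as it did with DESeq2 (adjusted p = 0.0708) and without shielded LPS 1, shielded LPS 2 or shielded without LPS 1 (adjusted p = 0.0716 to 0.124). Mcm7 shares 7.3% of its exon bases with Ap4m1 and 1.4% with Cops6, and Cops6 moved up with LPS, at 0.55 in unshielded and 0.94 in shielded mice.

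Pcna, the sliding clamp, rose with LPS most in shielded mice. For Pcna, unshielded LPS libraries gave 78.2, 79.1 and 77.4 CPM and those without LPS 65.2, 57.4 and 53.1 CPM, while shielded LPS libraries gave 147, 133 and 129.8 CPM and those without LPS 62.1, 61.98 and 54.7 CPM. Shielded LPS libraries were above all others, unshielded LPS libraries came next without overlap, and the 2 groups without LPS overlapped. The log2 fold change with LPS was 0.42 ± 0.09 (adjusted p = 0.0026) in unshielded and 1.20 ± 0.09 (adjusted p = 3.21e-07) in shielded mice, and after LPS unshielded mice were lower, at log2 -0.80 ± 0.09 (adjusted p = 2.78e-05). The unshielded call was lost under library totals (log2 fold change 0.12, adjusted p = 0.131). A processed copy, Pcna-ps2, held 0.51% as many counts as Pcna.

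The largest change of any member in the 5 comparisons was that of Dctd, a deaminase that makes dUMP, the substrate of thymidylate synthase. Dctd had 8.07, 7.25 and 3.94 CPM in unshielded LPS libraries and 3.72, 5.39 and 4.44 CPM in unshielded libraries without LPS, and 30.02, 23.4 and 24.1 CPM in shielded LPS libraries and 4.44, 4.62 and 4.68 CPM in shielded libraries without LPS. The shielded LPS group was far above all others, and the 2 unshielded groups overlapped. Its log2 fold change with LPS was 0.52 ± 0.23 in unshielded mice (adjusted p = 0.088) and 2.50 ± 0.24 (adjusted p = 1.82e-06) in shielded mice. After LPS, unshielded mice were lower, at log2 -2.01 ± 0.23 (adjusted p = 3.04e-05).

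Thymidylate synthase itself, encoded by Tyms, was also highest in shielded LPS libraries. In unshielded mice Tyms stood at 4.37, 4.13 and 3.65 CPM with LPS and 3.83, 3.996 and 3.31 CPM without it, and in shielded mice at 10.97, 9.22 and 8.32 CPM with LPS and 4.78, 4.82 and 5.33 CPM without it. The 3 shielded LPS libraries were the highest, shielded libraries without LPS came next, and the unshielded groups overlapped below them. With LPS the log2 fold change was 0.13 ± 0.16 in unshielded mice (adjusted p = 0.52) and 0.93 ± 0.15 (adjusted p = 0.000192) in shielded mice. After LPS, unshielded mice were lower, at log2 -1.23 ± 0.15 (adjusted p = 5.34e-05). Exons annotated to Tyms hold stretches found in many other genes, so its counts are less certain.

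Uhrf1 encodes a protein that brings the maintenance DNA methyltransferase to newly copied DNA. The levels of Uhrf1 were 2.99, 2.495 and 1.88 CPM (unshielded, LPS), 1.89, 1.78 and 2.71 CPM (unshielded, no LPS), 5.46, 4.31 and 3.49 CPM (shielded, LPS) and 2.46, 2.04 and 3.06 CPM (shielded, no LPS). Shielded LPS libraries were above all other libraries. LPS gave a log2 fold change of 0.20 ± 0.26 in unshielded mice (adjusted p = 0.545) and 0.81 ± 0.26 (adjusted p = 0.0146) in shielded mice, and after LPS unshielded mice were lower, at log2 -0.85 ± 0.26 (adjusted p = 0.0176). The shielded call was lost without shielded LPS 1 or shielded without LPS 2 (adjusted p = 0.0647 and 0.0546), under library totals (adjusted p = 0.16) and without the 2 libraries whose fields conflict (adjusted p = 0.1). The call after LPS was lost without shielded LPS 1 or unshielded LPS 3 (adjusted p = 0.0645 and 0.0757).

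GINS1 and GINS2 belong to the complex that joins the helicase at the replication fork. For Gins1, unshielded LPS libraries gave 4.19, 3.88 and 3.77 CPM and those without LPS 3.72, 3.23 and 3.29 CPM, while shielded LPS libraries gave 4.58, 4.91 and 4.77 CPM and those without LPS 2.89, 2.81 and 3.71 CPM. The shielded LPS group was the highest and did not overlap those without LPS. The log2 fold change of Gins1 with LPS was 0.21 ± 0.16 in unshielded mice (adjusted p = 0.317) and 0.60 ± 0.16 (adjusted p = 0.00663) in shielded mice, where the call was lost under library totals (adjusted p = 0.24). Gins2 had 4.38, 5.34 and 5.43 CPM in unshielded LPS libraries and 4.67, 3.85 and 4.64 CPM in unshielded libraries without LPS, and 2.44, 4.04 and 2.79 CPM in shielded LPS libraries and 3.297, 2.81 and 3.21 CPM in shielded libraries without LPS. Unshielded LPS libraries were above shielded LPS libraries, and LPS and no LPS overlapped within each kind of mouse. After LPS Gins2 was higher in unshielded mice by log2 0.71 ± 0.20 (adjusted p = 0.0126), and not so without shielded LPS 1 (adjusted p = 0.0716). Gse1 shares 67.3% of the Gins2 exon bases on the opposite strand and did not pass the test there (0.22, adjusted p = 0.369).

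Cdc6 loads the helicase onto replication origins and rested on as few as 4 counts in a library. In unshielded mice Cdc6 stood at 1.301, 0.702 and 0.877 CPM with LPS and 1.05, 0.867 and 0.951 CPM without it, and in shielded mice at 0.392, 0.158 and 0.608 CPM with LPS and 0.927, 0.549 and 0.672 CPM without it. Both unshielded groups were above shielded LPS libraries, and the other pairs of groups overlapped. After LPS it was higher in unshielded mice by log2 1.28 ± 0.39 (adjusted p = 0.0186), a call lost without shielded LPS 1, shielded LPS 2 or unshielded LPS 1 (adjusted p = 0.0542 to 0.0879).

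Rrm2, the regulated subunit of ribonucleotide reductase, was high in 1 library. The levels of Rrm2 were 3.62, 1.19 and 1.36 CPM (unshielded, LPS), 1.57, 1.204 and 1.67 CPM (unshielded, no LPS), 1.45, 1.23 and 0.961 CPM (shielded, LPS) and 1.59, 1.55 and 1.54 CPM (shielded, no LPS). Unshielded LPS library 1 was above the other 11 libraries, while shielded LPS libraries lay below shielded libraries without LPS. After LPS the log2 difference of unshielded over shielded was 0.76 ± 0.38 (adjusted p = 0.114). Rrm1, Tk1 (thymidine kinase) and Cdc45 (a part of the active helicase) passed no test either, and ranged from 22.1 to 26.4 CPM, from 5.12 to 14.8 CPM and from 1.40 to 2.35 CPM over the 12 libraries. The log2 fold change of Rrm1 with LPS in shielded mice was 0.12 ± 0.08, and under library totals it turned to -0.23 and was called lower (adjusted p = 0.00958).

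**Figure D3:**
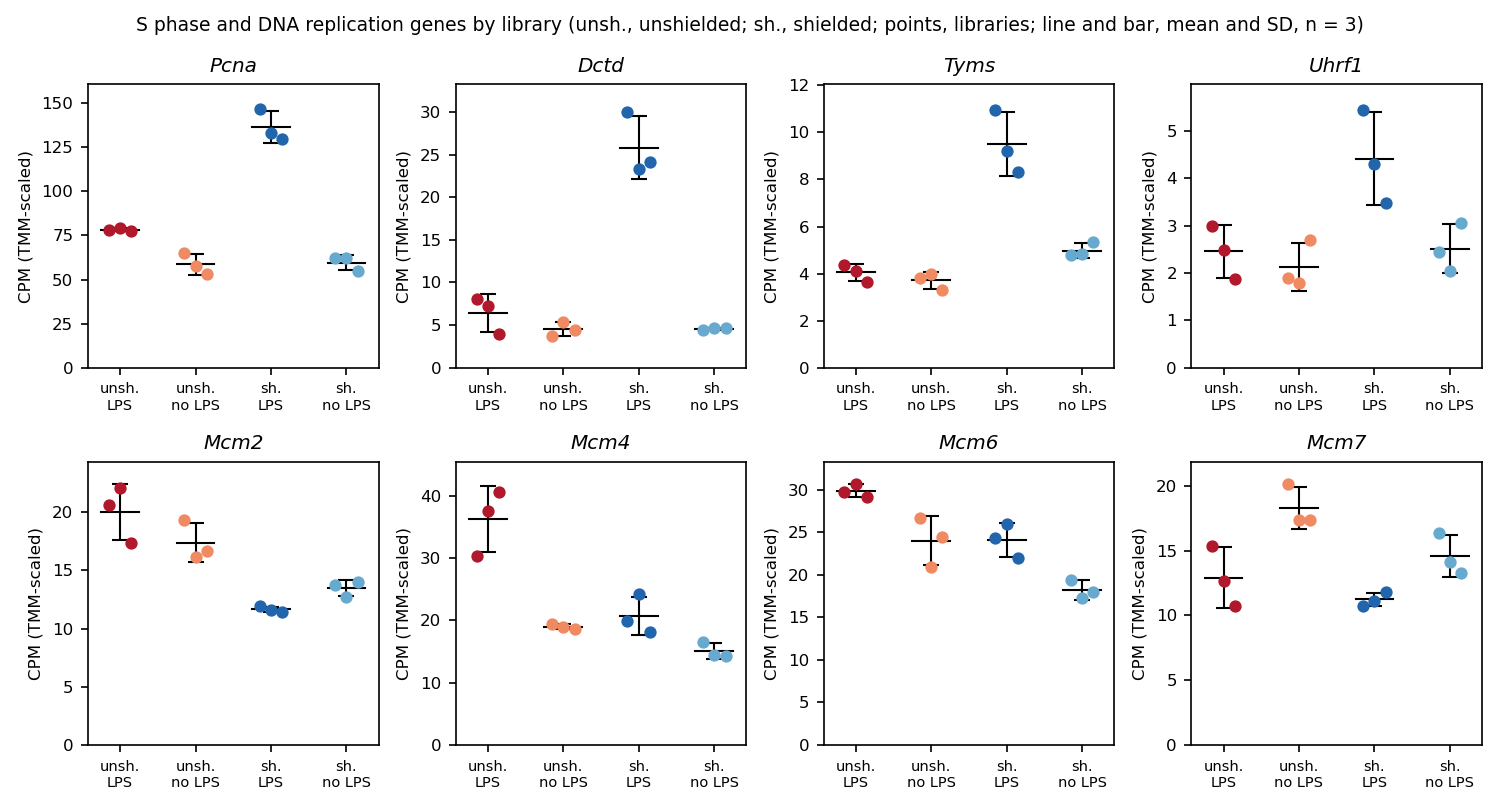
CPM of 8 S phase genes in each library (points), with the group mean and SD (line and bar, n = 3), for unshielded LPS, unshielded without LPS, shielded LPS and shielded without LPS from left to right. Pcna, Dctd, Tyms and Uhrf1 are highest in shielded LPS libraries, while Mcm2, Mcm4 and Mcm6 are highest in unshielded LPS libraries.

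Of the 16 mitotic genes, only Mki67 was called with LPS in unshielded mice (higher) and only Aurkb in shielded mice (lower), which is 6.25% of them in each, against 43.1% and 67.5% of all genes. Under library totals Ccnb2, Cdk1, Cdc20 and Hmmr were also called lower with LPS in shielded mice. With all libraries the edgeR test called none without LPS between unshielded and shielded mice, with 1 below an unadjusted p of 0.05. DESeq2 called none there either. After LPS, 4 were higher in unshielded than in shielded mice and none was lower. The 4 are 25% of the 16, against 19.1% of all genes called higher there. All 16 had a positive log2 difference there, with a median of 0.45, beside 0.07 over all genes tested. Without unshielded LPS library 1, 10 of 16 were positive and the median was 0.25; Top2a, Ccnb1, Ccna2, Aurka, Bub1 and Hmmr turned negative.

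Mki67 encodes the Ki-67 protein, which is present in cells in all active phases of the cycle and coats chromosomes in mitosis. For Mki67, unshielded LPS libraries gave 13.1, 20.1 and 20.4 CPM and those without LPS 6.27, 6.5 and 6.92 CPM, while shielded LPS libraries gave 6.39, 5.26 and 5.86 CPM and those without LPS 5.91, 4.17 and 3.42 CPM. The 3 unshielded LPS libraries were above all 9 others. Its log2 fold change with LPS was 1.45 ± 0.21 (adjusted p = 0.000137) in unshielded mice and 0.38 ± 0.21 in shielded mice (adjusted p = 0.133). After LPS it was higher in unshielded mice by log2 1.61 ± 0.21 (adjusted p = 7.43e-05). Without LPS, unshielded libraries lay above shielded libraries with no overlap, but Mki67 was not called there. When shielded library 1 without LPS was left out, Mki67 was called in that comparison and with LPS in shielded mice.

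Top2a encodes the topoisomerase that untangles chromosomes before they separate, and it did not follow Mki67. Top2a had 9.32, 5.81 and 5.58 CPM in unshielded LPS libraries and 5.82, 5.58 and 5.36 CPM in unshielded libraries without LPS, and 6.87, 5.97 and 6.596 CPM in shielded LPS libraries and 6.72, 5.27 and 4.64 CPM in shielded libraries without LPS. Shielded LPS libraries lay above unshielded libraries without LPS, and the other pairs of groups overlapped. On the log2 scale the LPS effect was 0.30 ± 0.21 in unshielded and 0.23 ± 0.21 in shielded mice (adjusted p = 0.245 and 0.344). The ratio of Mki67 to Top2a CPM was 1.41, 3.47 and 3.66 in unshielded LPS libraries and 1.08 to 1.29 in unshielded libraries without LPS, and 0.881 to 0.93 in shielded LPS libraries and 0.738 to 0.878 in shielded libraries without LPS. Library 1 of unshielded LPS had the lowest Mki67 and the highest Top2a of its group.

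Cdk1, the kinase that drives entry into mitosis, passed no test. In unshielded mice Cdk1 stood at 3.85, 3.08 and 2.98 CPM with LPS and 2.83, 2.89 and 2.74 CPM without it, and in shielded mice at 2.26, 2.37 and 2.69 CPM with LPS and 3.66, 2.97 and 3.08 CPM without it. LPS libraries lay above those without LPS in unshielded mice and below them in shielded mice, in both cases without overlap. The log2 fold changes were 0.23 ± 0.18 (adjusted p = 0.307) in unshielded and -0.41 ± 0.18 (adjusted p = 0.0607) in shielded mice, and the difference between them was 0.64 ± 0.25 (adjusted p = 0.116).

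Aurkb encodes the Aurora B kinase, which corrects attachments of chromosomes to the spindle. The levels of Aurkb were 1.996, 1.68 and 0.914 CPM (unshielded, LPS), 1.78, 1.88 and 1.61 CPM (unshielded, no LPS), 0.693, 0.633 and 0.704 CPM (shielded, LPS) and 1.59, 1.23 and 1.41 CPM (shielded, no LPS). The 3 shielded LPS libraries were the lowest, unshielded libraries without LPS lay above shielded libraries without LPS, and unshielded LPS libraries overlapped both. With LPS its log2 fold change was -0.20 ± 0.27 in unshielded mice (adjusted p = 0.564) and -1.06 ± 0.29 (adjusted p = 0.00683) in shielded mice. After LPS it was higher in unshielded mice by log2 1.17 ± 0.29 (adjusted p = 0.00577).

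Birc5 encodes survivin, a partner of Aurora B. For Birc5, unshielded LPS libraries gave 1.8, 1.58 and 1.49 CPM and those without LPS 1.03, 1.54 and 1.01 CPM, while shielded LPS libraries gave 0.934, 1.23 and 0.896 CPM and those without LPS 1.12, 1.16 and 1.15 CPM. Unshielded LPS libraries were above shielded LPS libraries. After LPS the log2 difference was 0.68 ± 0.23 (adjusted p = 0.0299), and it was lost on leaving out shielded LPS 1 or 3 or unshielded LPS 1 or 3 (adjusted p = 0.0501 to 0.127) and without the 2 libraries whose fields conflict (adjusted p = 0.0627).

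Cdc20 activates the ligase that ends mitosis. Cdc20 had 3.83, 3.31 and 2.798 CPM in unshielded LPS libraries and 2.6, 1.93 and 2.68 CPM in unshielded libraries without LPS, and 1.84, 2.097 and 1.34 CPM in shielded LPS libraries and 2.59, 1.78 and 2.25 CPM in shielded libraries without LPS. The unshielded LPS group was above all others. After LPS the log2 difference of unshielded over shielded was 0.92 ± 0.24 (adjusted p = 0.00747), while with LPS its fold change was 0.45 ± 0.23 in unshielded and -0.34 ± 0.24 in shielded mice (adjusted p = 0.13 and 0.227).

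The other 10 mitotic members, the cyclins Ccnb1, Ccnb2 and Ccna2, the kinases Aurka, Bub1 and Plk1, the motors Cenpe and Kif11, and the spindle proteins Hmmr and Tpx2, were called in no comparison. Their levels lay between 0.289 CPM (Ccnb1) and 3.33 CPM (Kif11). The processed copies of Ccnb1 in the table, Ccnb1-ps and Gm12856, held 7.41% and 5.56% as many counts as the gene, so its counts are less certain. Unshielded LPS library 1 was the highest of its group for 15 of 16 mitotic genes, all but Mki67. Summed over the 16 genes, the level was 57.5, 50.7 and 48.0 CPM in unshielded LPS and 34.1 to 35.4 CPM in unshielded without LPS, and 30.6 to 32.8 CPM in shielded LPS and 29.9 to 36.4 CPM in shielded without LPS. In this sum the unshielded LPS libraries were above all others. Without Mki67 the sum over the other 15 was 44.4, 30.5 and 27.6 CPM in unshielded LPS and 27.7 to 28.5 CPM in unshielded without LPS, and 24.7 to 26.4 CPM in shielded LPS and 25.8 to 30.5 CPM in shielded without LPS. Only library 1 of unshielded LPS then stood apart.

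Without unshielded LPS library 1, the median log2 difference of all 43 members after LPS, unshielded over shielded, was 0.03 in place of 0.31, and 16 of 19 calls held; Mcm6, Cdc6 and Birc5 were lost. The calls of Mki67, Aurkb and Cdc20 held. With LPS in unshielded mice the median without it was 0.05 in place of 0.21, and 9 of 10 calls held. For the difference of LPS effects the median without it was 0.05 in place of 0.26, and 5 of 8 calls held. The part of the neutrophil precursor genes, which were high in the same library, was not tested.

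**Figure D4:**
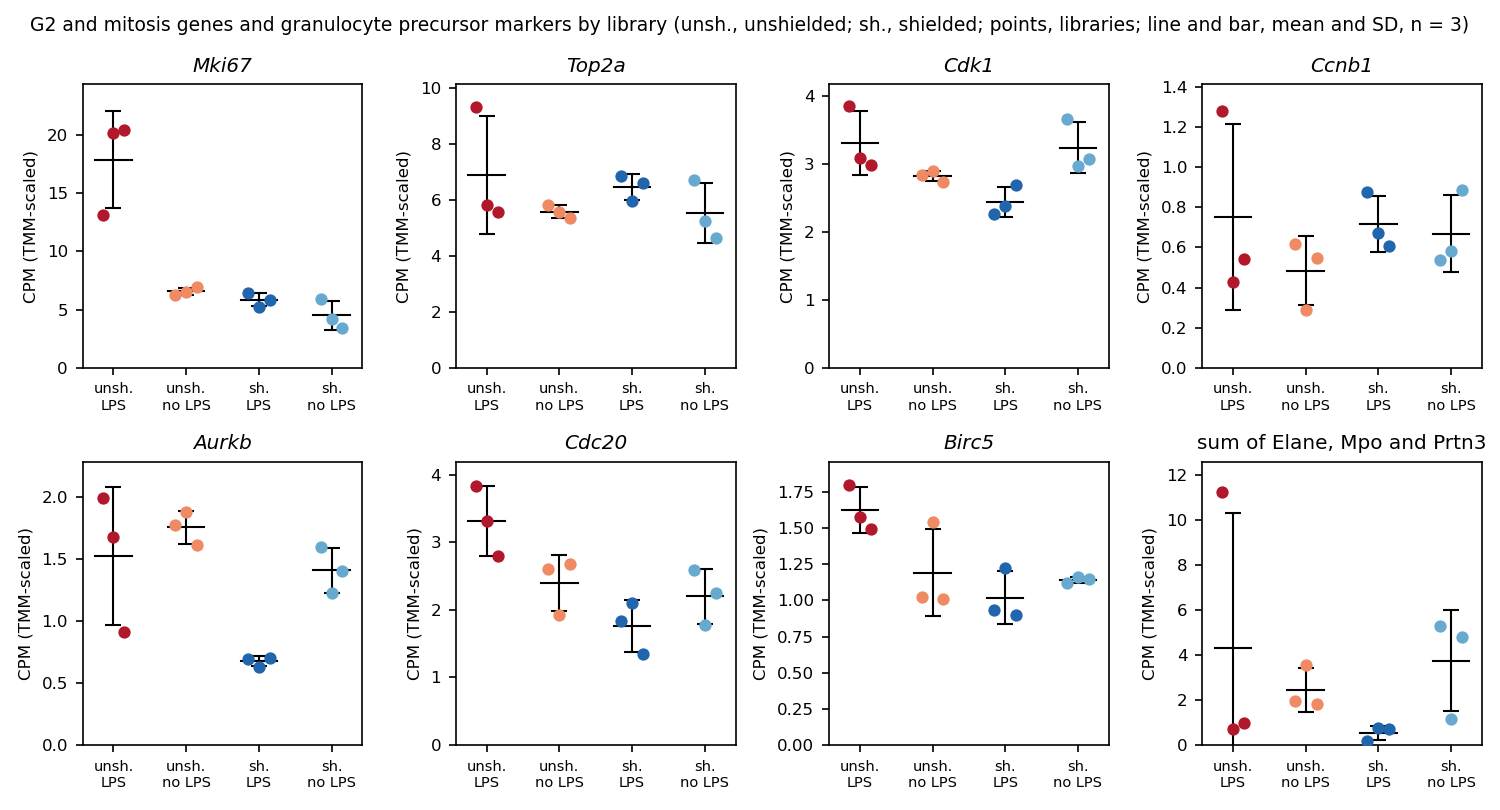
CPM of 7 mitotic genes and the summed CPM of Elane, Mpo and Prtn3 in each library (points), with the group mean and SD (line and bar, n = 3), for unshielded LPS, unshielded without LPS, shielded LPS and shielded without LPS from left to right. Mki67 is high in all 3 unshielded LPS libraries, while Top2a, Ccnb1 and the neutrophil precursor genes are high in 1 of them.

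The LPS effect differed between unshielded and shielded mice for 8 members in a test of the difference itself. It was more positive in unshielded mice for Mki67 by log2 1.07 ± 0.30 (adjusted p = 0.0329), for E2f2 by 0.88 ± 0.26 (adjusted p = 0.04) and for Ccnd3 by 0.71 ± 0.17 (adjusted p = 0.0159). It was less positive in unshielded mice for Dctd, at a difference of -1.98 ± 0.33 (adjusted p = 0.00315), for Tyms at -0.81 ± 0.22 (adjusted p = 0.03), for Pcna at -0.78 ± 0.13 (adjusted p = 0.00313), for Ccnd2 at -0.59 ± 0.15 (adjusted p = 0.0219) and for Cdk4 at -0.58 ± 0.13 (adjusted p = 0.0116). Leaving out any 1 of the 12 libraries ended none of the calls of Dctd, Pcna and Cdk4. It ended the call of E2f2 in 10 of 12 fits (adjusted p = 0.0567 to 0.105; all but those without shielded LPS 3 or unshielded LPS 3), and that of Mki67 in 8 (adjusted p = 0.0508 to 0.094; all but those without shielded LPS 1 or 3, shielded without LPS 3 or unshielded LPS 1). It ended the call of Tyms in 7 (adjusted p = 0.0528 to 0.074; shielded LPS 1 and 2, shielded without LPS 1 and 2, unshielded LPS 3, unshielded without LPS 1 and 2). The call of Ccnd2 was lost in 5 (adjusted p = 0.0508 to 0.0547; shielded without LPS 2, unshielded LPS 1 and 3, unshielded without LPS 1 and 2), and that of Ccnd3 in 5 (adjusted p = 0.0531 to 0.0618; shielded LPS 2, shielded without LPS 3, unshielded LPS 1, unshielded without LPS 1 and 2). The calls did not hold without the 2 libraries whose fields conflict. Only 1 shielded library without LPS is then left, so the loss of calls cannot be told from the loss of samples. The median of the difference over all members was then 0.11 in place of 0.26.

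**Figure D5:**
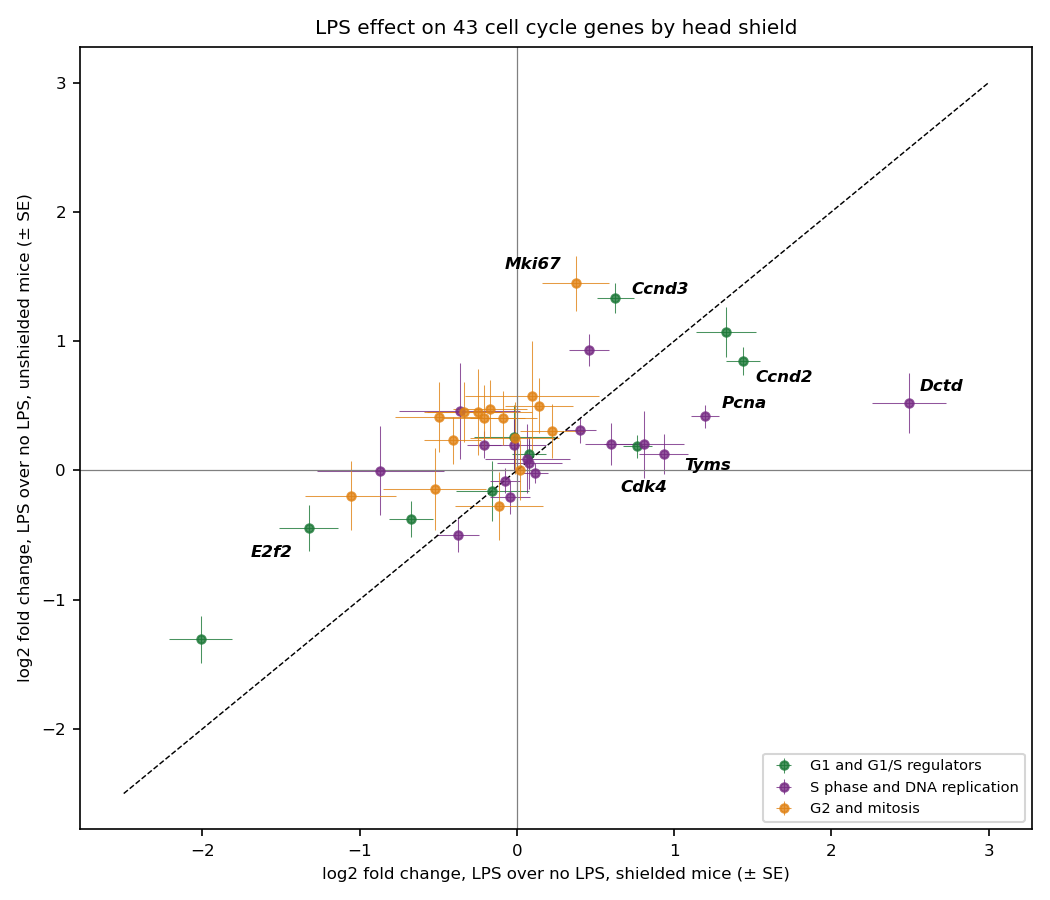
Log2 fold change with LPS for each of the 43 members in unshielded mice (vertical axis) against shielded mice (horizontal axis), with SE bars, the line of equal change dashed, and classes by colour. The 8 named genes are those whose LPS effect differed between the 2 kinds of mice; Mki67, Ccnd3 and E2f2 lie above the line, and Dctd, Tyms, Pcna, Ccnd2 and Cdk4 below it.

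Leaving out the 2 shielded libraries whose fields conflict left 13 of the 16 calls with LPS in shielded mice (all but Mcm4, Mcm6 and Uhrf1), 18 of the 19 after LPS between unshielded and shielded mice, and 1 of the 4 without LPS, that of Ccnd2. When these libraries were grouped by their field, edgeR called no gene at all with LPS in shielded mice, with 284 genes and no member below an unadjusted p of 0.05. DESeq2 was run only with the grouping by titles and called 15 of the 16 members with LPS in shielded mice. Both other readings leave 1 shielded library without LPS. Calls lost when the 2 libraries were left out cannot be told from the loss of samples. Grouping by the field also moved the 2 libraries into shielded LPS, so both shielded groups then changed. What each of these changes did to the calls was not tested.

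Genes that act beside the members were read from further lists. The counts below stand beside 43.1% of all genes called with LPS in unshielded mice, 67.5% with LPS in shielded mice and 44.6% between unshielded and shielded mice after LPS, and no list was tested against other genes. Of 11 CDK inhibitors and pocket proteins, which hold the cycle in G1, 2 were higher and 2 lower with LPS in unshielded mice, and 2 were higher and 7 lower in shielded mice. Cdkn1a, which encodes the inhibitor p21, rose by log2 2.71 ± 0.14 (adjusted p = 1.06e-07) in unshielded and 2.72 ± 0.14 (adjusted p = 2.67e-08) in shielded mice. In unshielded mice Cdkn1a stood at 154, 213 and 201 CPM with LPS and 28.6, 28.9 and 29.1 CPM without it, and in shielded mice at 238, 189.8 and 168 CPM with LPS and 30.02, 31.1 and 29.03 CPM without it. LPS libraries were far above the others in both kinds of mice. Rbl2, which encodes the pocket protein p130 of resting cells, fell in shielded mice, at log2 -0.96 ± 0.08 (adjusted p = 8.47e-07), and its LPS effect differed between unshielded and shielded mice by 0.81 ± 0.12 (adjusted p = 0.00209). The same held for Cdkn1b, which encodes the inhibitor p27, at -0.63 ± 0.10 (adjusted p = 0.000127) with LPS in shielded mice and 0.75 ± 0.14 (adjusted p = 0.00526) for the difference. Cdkn2a, which encodes the inhibitor p16 and the ARF protein, was lower in unshielded than in shielded mice, at log2 -1.54 ± 0.22 (adjusted p = 0.000127) after LPS and -1.85 ± 0.22 (adjusted p = 0.000322) without LPS.

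Of 15 other E2F factors, their DP partners and MuvB genes, 4 were higher and 3 lower with LPS in unshielded mice, and 8 were higher and 3 lower in shielded mice. Tfdp1 and Tfdp2, partners of the E2F factors, were called in opposite directions with LPS, at log2 0.37 ± 0.08 (adjusted p = 0.00353) for Tfdp1 and -0.88 ± 0.16 (adjusted p = 0.000715) for Tfdp2 in unshielded mice, and Tfdp2 fell, at log2 -1.99 ± 0.17 (adjusted p = 7.24e-07) in shielded mice. After LPS 4 of these 15 were higher and 8 lower in unshielded than in shielded mice, with Tfdp2 at 1.26 ± 0.17 (adjusted p = 7.89e-05) and E2f3, a further activator, at -0.86 ± 0.12 (adjusted p = 8.98e-05).

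Of 9 further genes of nucleotide supply, 3 were higher and 1 lower with LPS in unshielded mice, and 4 were higher and 3 lower in shielded mice. Cad and Umps, which carry out the making of pyrimidines, rose in shielded mice by log2 1.73 ± 0.17 (adjusted p = 2.69e-06) and 1.24 ± 0.14 (adjusted p = 6.12e-06). Their LPS effect was smaller in unshielded mice, at a difference of -1.15 ± 0.23 (adjusted p = 0.00845) for Cad and -1.16 ± 0.19 (adjusted p = 0.00306) for Umps. Dut, which makes dUMP by another path, went against them, at -0.91 ± 0.16 (adjusted p = 0.000373) with LPS in shielded mice and 0.83 ± 0.22 (adjusted p = 0.0288) for the difference.

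Of 14 genes of origin licensing and firing, 2 were higher and 1 lower with LPS in unshielded mice, and 6 were higher and 2 lower in shielded mice, with Orc2, a subunit of the origin recognition complex, at 0.56 ± 0.11 (adjusted p = 0.00139) and 1.23 ± 0.11 (adjusted p = 1.15e-06). Of 19 genes of the polymerases and the clamp loader, 2 were higher and 2 lower in unshielded mice, and 6 were higher and 4 lower in shielded mice. The replicative ligase Lig1 fell with LPS in both, at log2 -0.72 ± 0.12 (adjusted p = 0.000409) in unshielded and -1.43 ± 0.12 (adjusted p = 9.45e-07) in shielded mice. Pold2, a polymerase delta subunit, rose in both, by 0.58 ± 0.11 (adjusted p = 0.000812) and 1.17 ± 0.11 (adjusted p = 1.41e-06) in the same order.

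Of 18 genes of the kinetochore, spindle and checkpoint, 5 were higher and 1 lower in unshielded than in shielded mice after LPS. Cenpa, the histone variant of centromeres, was higher by log2 1.66 ± 0.18 (adjusted p = 2.59e-05) after LPS and 0.88 ± 0.18 (adjusted p = 0.00614) without LPS. With LPS, 2 of these 18 were higher and 4 lower in unshielded mice, and 2 were higher and 5 lower in shielded mice. Of 14 genes of the anaphase-promoting complex and mitotic entry, 5 were higher and 6 lower in unshielded than in shielded mice after LPS. With LPS, 3 were higher and 1 lower in unshielded mice, and 7 were higher and 2 lower in shielded mice.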

How the data were processed

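The authors deposited a table of whole-number read counts per Ensembl gene for 12 libraries, not normalized. RNA was amplified linearly before library making, per the labels' protocols. The submitters' processing notes name FastQC, STAR, HTSeq and build mm9; their versions, the annotation and the strand setting were not found in the labels or headers. Symbols came from the reference tables, which left 254 identifiers without one. Promoters are from another build (GRCm38.p6), and no mm9 coordinates are given. Groups follow the sample titles. Whether samples of a group came from different animals is not stated, so the spread behind each p-value is that between samples and may be technical. No libraries were copies of each other (chi-square per degree of freedom at least 12.5 between replicates).

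All genes were fitted in 1 model of 4 groups with edgeR 4.0.16 (limma 3.58.1, R 4.3.3): quasi-likelihood with robust dispersion, TMM scaling, filterByExpr (minimum count 10, minimum total 15), two-sided, Benjamini-Hochberg adjustment over 18875 genes, threshold 0.05. SE was taken as the size of the log2 fold change over the root of its F. CPM were computed from the deposited counts with TMM-scaled totals, with a prior count of 2 for log2 CPM. The fit was tested on simulated data. DESeq2 1.42.0, library totals, no filter, left-out libraries, fits of only the groups compared, a replicate block and both other readings of the conflicting fields were alternatives. In shielded mice the deviations of same-numbered LPS and no LPS libraries correlated at 0.112, 0.194 and 0.547. Those of differently numbered ones correlated at -0.483 to 0.399, the highest for LPS 1 with no LPS 2. These values do not settle whether the title numbers pair the libraries, and the labels do not say so. Same-numbered libraries did not reach 0.1 in every pair in any other comparison.

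Members are the symbols of the list, in classes by textbook role. Values in every library are given for each member called in any comparison and for Top2a, Cdk1 and Rrm2; of the other lists, called genes among the 3 smallest p in a direction may be named. Members and lists were chosen with earlier results of these data known.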

Additional observations from a re-analysis of the deposited data

Results flagged for a closer look

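For 8 members the response to LPS differed between unshielded and shielded mice in the edgeR test of the difference itself (unshielded minus shielded log2 fold change, adjusted over all genes tested). The difference was 1.07 ± 0.30 (adjusted p = 0.0329) for Mki67, 0.88 ± 0.26 (adjusted p = 0.04) for E2f2 and 0.71 ± 0.17 (adjusted p = 0.0159) for Ccnd3. It was -1.98 ± 0.33 (adjusted p = 0.00315) for Dctd, -0.81 ± 0.22 (adjusted p = 0.03) for Tyms, -0.78 ± 0.13 (adjusted p = 0.00313) for Pcna, -0.59 ± 0.15 (adjusted p = 0.0219) for Ccnd2 and -0.58 ± 0.13 (adjusted p = 0.0116) for Cdk4. In each of the 8, values of the 3 libraries per group are in the text above. No cause of these differences was tested.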

How the results depend on the processing

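Of the recomputed log2 fold changes of members, 2718 were called in neither fit, or in both with the same direction. A further 162 kept the direction and lost the call, 42 kept it and gained a call, and 2 turned. Where neither fit called a gene, its direction was not compared. Under library totals, members called with LPS in shielded mice numbered 6 higher and 15 lower, and Cdk2 (-0.277) and Rrm1 (-0.232) turned to lower there; 7 were lower with LPS in unshielded mice, and 5 differed upwards in the difference of LPS effects. With no filter, 1 member was higher and 2 lower in unshielded than in shielded mice without LPS, and 2 were lower in the difference of LPS effects, with 1571 genes called. The split of higher calls for that difference was then 47.7% in place of 30.5%. In a fit of only the groups compared, 5 members were higher and 2 lower without LPS between unshielded and shielded mice. With the replicate number as a block these were 8 and 2, with 3405 genes called. In every comparison samples are known to share only a number. Outside the LPS effect in shielded mice, same-numbered libraries correlated at -0.264 to 0.478. A fit of only the groups compared after LPS lost the calls of Cdc6 (adjusted p = 0.0716), Gins2 (0.0501), Birc5 (0.065) and Uhrf1 (0.0522) with no block; with the block Uhrf1 was called, Cdc6 (0.0563), Gins2 (0.055) and Birc5 (0.109) were not, and the call of Aurkb (0.061) was lost. In the difference the block ended the calls of E2f2 (0.0644) and Tyms (0.0575). Both other readings of the conflicting fields leave 1 shielded library without LPS. Where the 2 libraries were left out, calls lost cannot be told from the loss of samples. Grouping by the field also moved them into shielded LPS, and what each of these changes did to the calls was not tested. Without the 2 libraries whose fields conflict, 8369 genes were called with LPS in shielded mice; without LPS, 1 member was higher and 0 lower in unshielded mice (292 genes), and the difference of LPS effects called 0 members higher and 0 lower (148 genes). Grouped by the field, edgeR called 0 members higher, 0 lower and 0 genes with LPS in shielded mice (284 genes at an unadjusted p below 0.05), 0, 0 and 0 without LPS between unshielded and shielded mice (809 genes), and 0, 0 and 0 for the difference (481 genes); after LPS 4 members were higher, 0 lower and 1464 genes called. Leaving out 1 library gave 1 to 3 members higher, 0 to 0 lower and 1094 to 1661 genes without LPS between unshielded and shielded mice. For the difference of LPS effects it gave 0 to 3 members higher, 3 to 5 lower and 1615 to 6391 genes, the most without shielded LPS 3. A fit of only the groups compared was not run for the difference, which uses all libraries. The cause of these changes was not tested. The lowest counts in a library were 4 (Cdc6) and, among mitotic genes, 6 (Ccnb1); what depth contributed to the number of calls was not tested.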
